A study of Homo sapiens with 30 samples.

Results

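Lysyl oxidases (LOX, LOXL1, LOXL2, LOXL3 and LOXL4), elastic fibre genes (ELN, FBN1, FBN2 and FBLN5) and periostin (POSTN) were followed while a human pluripotent cell line was turned into heart muscle cells. These 10 genes were taken by symbol, and each symbol has 1 row among the 41495 rows of the deposited time-course table. All 10 reached at least 1 FPKM (a fragment count scaled to transcript length and library size) in at least 1 time point, which 21715 rows did. No member was listed at 0 at any time point. The cells were of H7, an established human embryonic stem cell (hESC) line, so every group stems from 1 line. The 11 time points are undifferentiated hESC, the days 1, 2, 3, 4, 5, 6, 8, 10 and 15 of differentiation (written D1, D2 and so on), and day 31, when cardiomyocytes were purified on Percoll, a density gradient. Differentiation was driven by 12 µM CHIR99021, an inhibitor of the kinase GSK3, for 24 hours, and then by 5 µM IWP4, an inhibitor of WNT secretion, for 2 days. Day 3 cells were sorted into ROR2+ cells, which the labels call PMESO, and ROR2- cells; day 4 cells were sorted into ROR2+ PDGFRa+ cells, called CMESO, and ROR2+ PDGFRa- cells. Each of the 15 groups has 2 libraries, 30 in all, made from RNA depleted of ribosomal RNA.

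Lysyl oxidases are secreted enzymes that need copper and oxidise lysine side chains in collagen and elastin, after which the chains cross-link. Fibrillins, the products of FBN1 and FBN2, assemble into microfibrils outside the cell, on which elastin (ELN) is deposited with the help of fibulin-5 (FBLN5). POSTN is a matricellular protein of heart valves and cardiac fibroblasts that binds collagen and assists its cross-linking. In the heart these genes are best known from fibroblasts, valve cells and the great vessels.

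The time-course table gives 1 value per gene and time point for the 2 libraries together, so its differences have no replicate error and no test. A difference was counted when log2(FPKM + 1) moved by at least 1, which is 2-fold on that scale and understates the change of low genes. Read counts are not given. Relative depth was estimated as the inverse of the most common ratio of FPKM to that at D1, among genes below 0.3 FPKM throughout. It ran between 0.529 times that of D1 at D15 and 1.12 times at D6. Any scaling of the libraries by the authors would also enter this estimate. Summed FPKM ran between 617580 at D15 and 1429857 in hESC, so the scale of the time points is not equal. Markers followed the labels: as deposited, 8 of 8 cardiomyocyte markers were highest in the purified cells, where they summed to 13097 FPKM. Of these, MYL7 and ACTN2 were nearly as high at D15, with 3786 and 187 FPKM, against 3792 and 190 in cardiomyocytes. Their order thus depends on how the columns are scaled. Of 5 pluripotency markers 4 were highest in hESC. In these bulk samples, fewer cells of a type and less RNA per cell cannot be told apart.

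The genes of cross-linking and elastic fibres were at their highest late. Of the 10 genes, 8 had their highest level at D15 and the other 2, LOXL4 and FBLN5, in the purified cardiomyocytes; among all kept genes, 13.1% were highest at D15 and 17.1% in cardiomyocytes. At D15, 6 of the 10 were at least 2-fold above each of the 9 earlier time points, which held for 2.86% of kept genes (620 of 21715). Of these, LOX was 18.3 times its highest earlier level, POSTN 8.76 times, FBN1 8.40 times, LOXL2 3.57 times, FBN2 2.94 times and ELN 2.46 times; FBLN5, at 2.83 times, missed the line because of its low level. Under both rescalings of the time points, which divide out a median ratio or set each column to TPM, the same split of 8 and 2 was found, while 28.4% and 24.2% of all kept genes were then highest at D15.

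**Figure D1:**
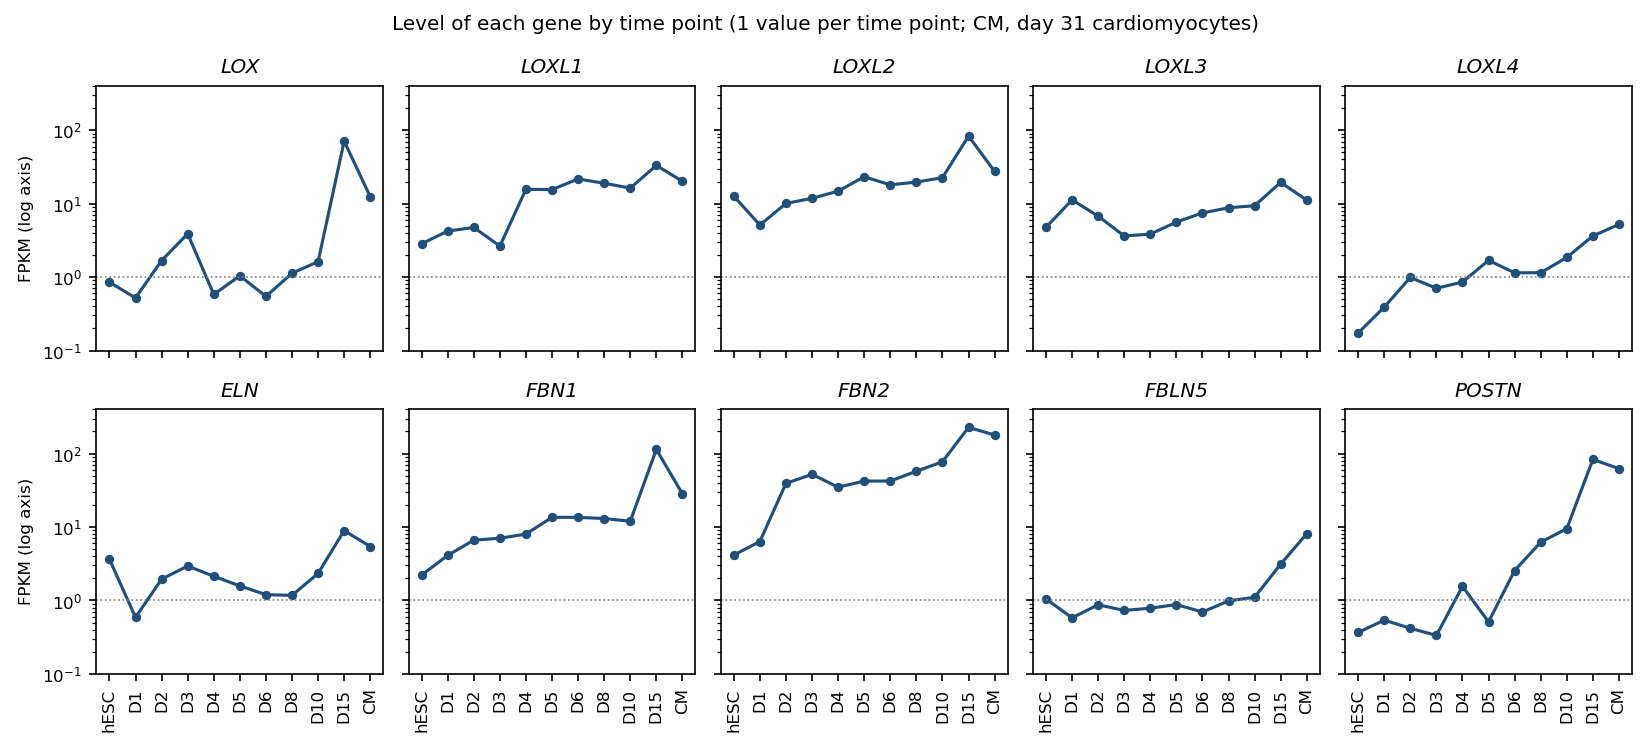
FPKM of each of the 10 genes (vertical log axis) at the 11 time points (horizontal axis, in order of differentiation); each point is the authors' single value for 2 libraries. LOX, FBN1 and POSTN stand highest at D15 at 71.1, 114 and 83.2 FPKM, while FBLN5 and LOXL4 stand highest in cardiomyocytes.

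LOX, the founding member of the enzyme family, had 0.851 FPKM in hESC, then 0.521 at D1, 1.68 at D2, 3.89 at D3, 0.581 at D4, 1.04 at D5, 0.546 at D6, 1.13 at D8, 1.62 at D10 and 71.1 at D15, and 12.4 FPKM in cardiomyocytes. It was thus low before D15 apart from a small peak on D3. LOXL2, which also cross-links the collagen IV of basement membranes, had 12.7 FPKM in hESC, then 5.12, 10.1, 11.8, 14.8, 23.3, 18.0, 19.7 and 22.6 at D1 to D6, D8 and D10, 83.1 at D15, and 27.5 FPKM in cardiomyocytes. LOXL2 was well above 1 FPKM throughout, with its lowest level on D1.

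LOXL1, the member known for elastin and elastic fibre upkeep, had 2.84 FPKM in hESC, then 4.23, 4.74, 2.64, 15.7, 15.5, 21.7, 18.9 and 16.3 at D1 to D6, D8 and D10, 33.2 at D15, and 20.2 FPKM in cardiomyocytes. Its level was at least 15.5 FPKM from D4 on, well before the high level of LOX. LOXL3, needed in mice for palate and spine development, had 4.75 FPKM in hESC, then 11.3, 6.77, 3.63, 3.85, 5.62, 7.48, 8.78 and 9.38 at D1 to D6, D8 and D10, 19.5 at D15, and 11.2 FPKM in cardiomyocytes. LOXL3 had an early peak on D1 and was then higher at each time point from D3 to D15. LOXL4 had 0.173 FPKM in hESC, then 0.390, 0.989, 0.704, 0.856, 1.69, 1.14, 1.15 and 1.85 at D1 to D6, D8 and D10, 3.64 at D15, and 5.21 FPKM in cardiomyocytes. Either LOXL4 or LOX was the lowest of the family at each time point. The exons of LOXL3 overlap those of HTRA2 over 14.3% of their length and those of LOXL1 overlap the antisense gene LOXL1-AS1 over 9.21%. Each other overlap covered at most 4.95%. LOX shared 2.49% with SRFBP1 on the opposite strand, and LOXL2 shared 2.1% with ENTPD4 on the same strand. At D1 SRFBP1 had 23.7 FPKM and LOX 0.521, and at D10 ENTPD4 had 68.0 FPKM and LOXL2 22.6. With the strand setting not stated, reads of such pairs cannot be told apart, and their part in the levels was not tested.

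The make-up of the enzyme family changed with time. Summed over the 5 genes, the level was 21.3 FPKM in hESC, 22.7 at D3, 35.8 at D4, 51.7 at D10 and 211 at D15, and 76.5 FPKM in cardiomyocytes. LOXL2 made up 59.5% of the sum in hESC, LOXL3 52.3% at D1 and LOXL1 43.9% at D4. LOX itself made up 4.00% of the sum in hESC, 17.1% at D3, 1.62% at D4, 3.14% at D10 and 33.8% at D15, and 16.2% in cardiomyocytes. LOXL2 was the highest lysyl oxidase at 8 of the 11 time points, including D15 and cardiomyocytes.

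**Figure D2:**
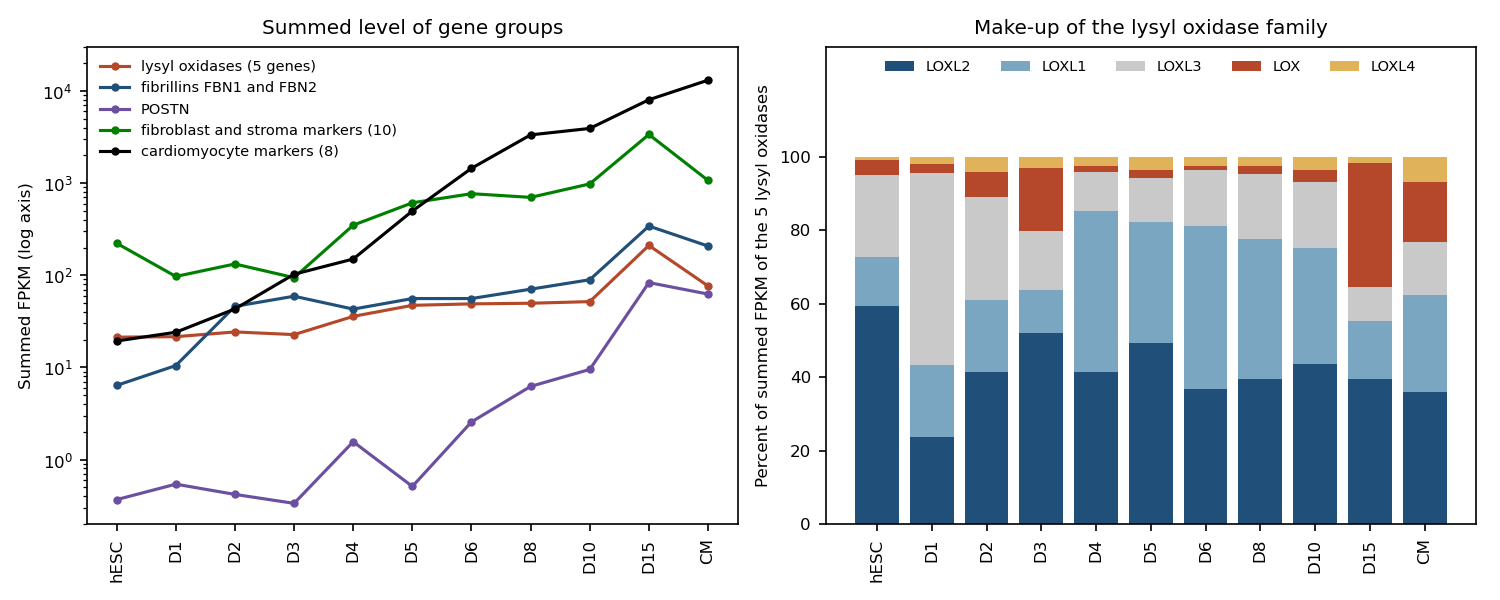
Left, summed FPKM (log axis) of the 5 lysyl oxidases, of both fibrillins, of POSTN and of the stromal and cardiomyocyte marker lists at each time point; right, each lysyl oxidase as a percent of the family sum. The family sum is 211 FPKM at D15, of which LOX makes up 33.8%, against 51.7 FPKM and 3.14% at D10.

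FBN2, the fibrillin of developing tissues, had 4.15 FPKM in hESC, then 6.35 at D1, 39.3 at D2, 52.2 at D3, 34.9 at D4, 42.2 at D5, 42.3 at D6, 57.5 at D8, 77.4 at D10 and 228 at D15, and 179 FPKM in cardiomyocytes. It was the highest of the 10 genes at every time point from D2 on. FBN1, the gene mutated in Marfan syndrome, had 2.22 FPKM in hESC, then 4.11, 6.63, 7.04, 8.01, 13.6, 13.5, 13.1 and 12.0 at D1 to D6, D8 and D10, 114 at D15, and 28.3 FPKM in cardiomyocytes. The FPKM of FBN2 was 1.87 times that of FBN1 in hESC, 7.41 times at D3, 3.11 times at D5, 6.45 times at D10 and 2.00 times at D15, and 6.33 times in cardiomyocytes, so that the 2 fibrillins were nearest to each other at D1, in hESC and at D15.

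ELN, the elastin precursor, had 3.63 FPKM in hESC, then 0.590, 1.95, 2.95, 2.14, 1.58, 1.20, 1.17 and 2.34 at D1 to D6, D8 and D10, 8.95 at D15, and 5.42 FPKM in cardiomyocytes. It stayed low next to FBN2, whose FPKM was 25.5 times that of ELN at D15 and 33.0 times in cardiomyocytes. FBLN5, which tethers elastin to microfibrils, had 1.05 FPKM in hESC, between 0.580 and 1.11 FPKM at D1 to D10, 3.13 at D15, and 8.13 FPKM in cardiomyocytes. FBLN5 was the one gene of the 10 that was at least 2-fold above D15 in the purified cells.

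POSTN had 0.367 FPKM in hESC, then 0.540 at D1, 0.418 at D2, 0.334 at D3, 1.56 at D4, 0.511 at D5, 2.56 at D6, 6.22 at D8, 9.50 at D10 and 83.2 at D15, and 62.4 FPKM in cardiomyocytes. From D5 on its level was higher at each time point up to D15. It was the only gene of the 10 that was 2-fold higher in D6 against D5 and in D8 against D6, where 1.21% and 1.33% of all genes were higher and 6.18% and 0.677% lower. For D10 against D6 it was again the only one, with 9.50 FPKM at D10 and 2.56 at D6, where 3.64% of all genes were higher and 2.15% lower.

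The largest common step was that between D10 and D15. All 10 genes were above their D10 level at D15, and 6 (LOX, LOXL2, ELN, FBN1, FBN2 and POSTN) were at least 2-fold higher, against 6.32% of the 21715 kept genes; none was 2-fold lower, against 9.51%. LOX had 71.1 FPKM at D15 and 1.62 at D10, a log2 difference of 4.78. FBN1 had 114 FPKM at D15 and 12.0 at D10, a log2 difference of 3.15, and POSTN had 83.2 and 9.50 FPKM, a log2 difference of 3.00. The other 7 differed by 0.70 for LOXL4 to 1.83 for LOXL2 on the log2 scale, and LOXL1, LOXL3 and FBLN5 lay just under the 2-fold line at 0.97 to 0.98. The median log2 difference of the 10 was 1.56, beside -0.04 for all kept genes. After median-ratio rescaling these medians were 2.02 and 0.26, and all 10 genes were then at least 2-fold higher, as were 14.5% of all kept genes.

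Summed stromal markers were also higher in this step. Of the 10 fibroblast and stroma markers, 9 reached 1 FPKM at D15 and 9 at D10. All 10 summed to 3371 FPKM at D15 and 980 FPKM at D10, a ratio of 3.44. COL3A1, COL1A1 and COL1A2, at 2037, 733 and 366 FPKM at D15, made up most of this sum. Values per 1000 FPKM of stromal markers thus rest mainly on these collagens. Of 9 kept stromal markers 5 were 2-fold higher, against 6.32% of all kept genes, and none was 2-fold lower. THY1 was below its D10 level, with 8.10 FPKM at D15 and 10.6 at D10. DPT was at or below 0.367 FPKM at all times. Cardiomyocyte markers summed to 8028 FPKM at D15 and 3919 at D10, smooth muscle markers to 672 and 515, endothelial markers to 33.7 and 19.4, and epicardial markers to 22.5 and 27.1. Per 1000 FPKM of stromal markers, LOX had 21.1 FPKM at D15 and 1.66 at D10, a ratio of 12.7, and FBN1 and POSTN had ratios of 2.76 and 2.55. ELN and LOXL2 had ratios of 1.11 and 1.07, and the other 5 had ratios between 0.571 and 0.856. The part of these markers in the D15 levels was not tested.

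In the purified cardiomyocytes most of the 10 genes were lower than at D15. These cells were both later in differentiation than those at D15 and purified on Percoll. The parts of age and purification thus cannot be told apart and were not tested. LOX, LOXL2 and FBN1 were at least 2-fold lower (4.07% of all kept genes were), with 12.4, 27.5 and 28.3 FPKM in cardiomyocytes, against 71.1, 83.1 and 114 FPKM at D15. On the log2 scale LOX differed by -2.43, FBN1 by -1.97 and LOXL2 by -1.56. Only FBLN5 was at least 2-fold higher, with 8.13 FPKM in cardiomyocytes and 3.13 at D15 (log2 difference 1.14), where 7.23% of all kept genes were higher; after either rescaling its difference was 0.82 or 1.00 and lay just under the 2-fold line. LOXL4 was above its D15 level by 0.42, or 0.08 after median-ratio rescaling, under which 6 of the 10 genes, and 9.75% of all kept genes, were 2-fold lower than at D15. FBN2 and POSTN kept 78.6% and 75.0% of their D15 FPKM in cardiomyocytes, LOXL1, ELN and LOXL3 57.2% to 60.8%, and LOX 17.5%. Stromal markers summed to 1069 FPKM in cardiomyocytes and 3371 at D15, a ratio of 0.317, and 8 of 9 kept ones were 2-fold lower. COL3A1, COL1A1 and COL1A2, at 609, 224 and 173 FPKM in cardiomyocytes, again made up most of this sum. Cardiomyocyte markers summed to 13097 FPKM in cardiomyocytes and 8028 at D15, and smooth muscle markers to 1045 and 672. Endothelial markers summed to 20.9 and 33.7, epicardial markers to 18.4 and 22.5, and endoderm and liver markers to 44.0 and 35.9. Per 1000 FPKM of stromal markers, FBLN5 was 8.19 times its D15 value in cardiomyocytes, LOXL4 4.51 times, FBN2 2.48 times and POSTN 2.37 times, while LOX and FBN1 were at 0.550 and 0.782 times. The part of these markers was not tested.

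**Figure D3:**
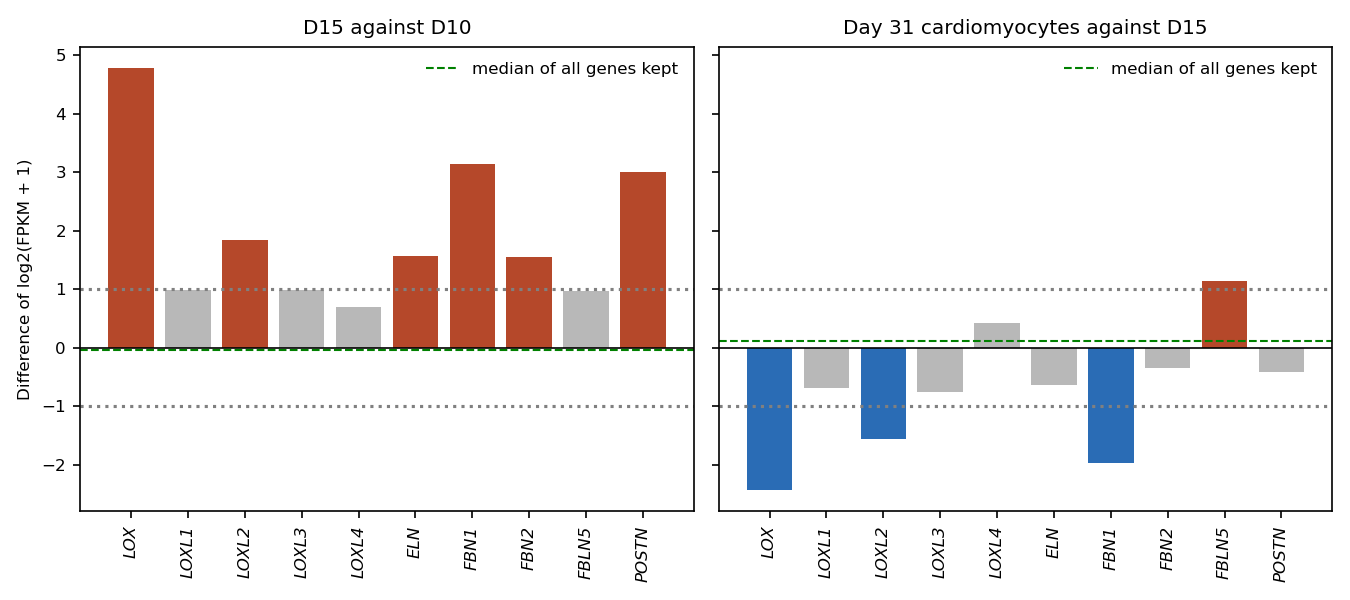
Difference in log2(FPKM + 1) of each of the 10 genes for D15 against D10 and for purified cardiomyocytes against D15, as bars from 0; dashed lines mark the median of all 21715 kept genes. All 10 bars are above 0 for D15 against D10, and 8 of 10 are below 0 for cardiomyocytes against D15.

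From end to end of the time course, 9 of the 10 genes were at least 2-fold higher in cardiomyocytes than in hESC (18.7% of all kept genes were) and none was 2-fold lower (16.9%). ELN was the exception, with 5.42 FPKM in cardiomyocytes and 3.63 in hESC. At D15 all 10, ELN included, were 2-fold above hESC (15.8% of all kept genes were higher and 20.8% lower). Against D10 in place of D15, 6 of the 10 were 2-fold higher in cardiomyocytes (8.14% of all kept genes) and none lower (4.61%). LOX then had 12.4 FPKM in cardiomyocytes and 1.62 at D10, and POSTN had 62.4 and 9.50 FPKM, so the direction of the last step depends on which of these time points it is set against.

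Promoter sequence is shown for LOX, FBN2 and POSTN, the enzyme with the largest D15 difference, the highest gene and the matricellular gene. Each is the 250 bases before an annotated start on the gene's own strand, from RefSeq on GRCh38.p14, the only coordinates given here on that build. Of the 10 genes, 8 were searched, with 12 starts. ELN had no entry, and LOXL2 was left out of the search. Both strands were searched for TATAAA (the TATA box), CACGTG (an E-box), ACGTG (the core of hypoxia response elements), GGAATG (a TEAD element), CAGACA (a SMAD element) and the CArG box, the site of SRF. Capitals mark the matches.
LOX, the third listed start, chr5:122078260-122078509, minus strand: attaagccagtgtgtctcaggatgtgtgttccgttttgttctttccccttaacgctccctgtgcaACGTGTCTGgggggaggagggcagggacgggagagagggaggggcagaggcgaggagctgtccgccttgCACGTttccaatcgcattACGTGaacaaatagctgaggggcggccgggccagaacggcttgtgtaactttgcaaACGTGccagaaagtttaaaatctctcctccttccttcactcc
FBN2, chr5:128538246-128538495, minus strand: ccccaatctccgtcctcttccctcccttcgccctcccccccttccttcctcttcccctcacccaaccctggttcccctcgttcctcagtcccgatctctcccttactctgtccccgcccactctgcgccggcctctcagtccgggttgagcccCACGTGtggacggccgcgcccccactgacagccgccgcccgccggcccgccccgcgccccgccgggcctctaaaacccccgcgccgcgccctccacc
POSTN, chr13:37598769-37599018, minus strand: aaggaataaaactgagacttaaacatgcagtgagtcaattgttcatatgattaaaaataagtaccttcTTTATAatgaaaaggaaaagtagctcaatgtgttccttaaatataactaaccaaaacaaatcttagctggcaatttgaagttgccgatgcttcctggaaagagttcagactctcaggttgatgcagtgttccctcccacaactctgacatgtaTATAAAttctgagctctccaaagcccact
The LOX window holds 4 ACGTG matches, first bases at -185, -116, -98 and -42 from the start, and a CAGACA match on the other strand at -182 that overlaps the one at -185. Of 35116 promoters of the same length, 18.5% hold ACGTG, 0.669% hold it at least 4 times and 13.6% hold CAGACA. The windows of the other two listed starts of LOX have 1 ACGTG each. In the FBN2 window CACGTG at -97, which 6.34% of promoters hold, contains ACGTG on both strands, and GC content is 72.8% beside a median of 58.0%. POSTN has TATAAA at -29 and, on the other strand, at -182, with GC content of 36.4%; 10.7% of promoters hold TATAAA and 2.05% hold it at least 2 times. Elsewhere among the matched genes, FBLN5 has TATAAA at -33 of its first start, LOXL3 has GGAATG at -118 and -100 of its second start, and FBN1 has GGAATG at -58. GGAATG is held by 11.9% of promoters, and none of the searched windows of these genes held a CArG box, which 1.16% hold. These matches describe letters and were not tied to any level above.

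In the first days few of the 10 genes differed at each step, in either direction. At D1, after CHIR99021, LOXL3 was 2-fold higher than in hESC, with 11.3 FPKM at D1 and 4.75 in hESC (12.0% of all kept genes were higher). LOXL2 and ELN were 2-fold lower, with 5.12 and 0.590 FPKM at D1, against 12.7 and 3.63 FPKM in hESC (11.1% were lower). These shares lie near those of all genes, and with the columns set to TPM 4 members were higher and none lower, beside 34.1% and 3.98% of all genes. At D2, FBN2 was 2-fold higher, with 39.3 FPKM at D2 and 6.35 at D1, the only one of the 10 in a step in which 2.66% of all genes were higher and 2.34% lower. Between D3 and D4, LOXL1 was 2-fold higher, with 15.7 FPKM at D4 and 2.64 at D3 (6.79% of all genes), and LOX was lower, with 0.581 FPKM at D4 and 3.89 at D3 (6.3%). Stromal markers summed to 349 FPKM at D4 and 94.1 at D3. None of the 10 passed 2-fold for D3 against D2 (3.09% of all genes were higher and 5.04% lower), for D5 against D4 (3.68% and 1.26%) or for D10 against D8 (1.16% and 1.11%).

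The sort tables set populations of 1 day against each other with the authors' own FPKM and test. Every gene in them has a q-value below 0.05, and a gene that is missing cannot be read as equal between populations. The labels do not say if both libraries of a population are separate cultures, so these p-values may measure technical spread. FPKM of the sorts were scaled apart from those of the time course. LOXL2 and LOXL3 are in neither table. Loci are given as the authors' deposited tables name them, on hg19 and counted from 1, and can span neighbouring genes: LOX at chr5:121297656-121413980, which also holds SRFBP1, LOXL1 at chr15:74200424-74244478, LOXL4 at chr10:100007447-100028007 and ELN at chr7:73442119-73484237. FBN1 is at chr15:48700503-48938046, FBN2 at chr5:127593601-128369335, FBLN5 at chr14:92335756-92414331 and POSTN at chr13:38136720-38172981.

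On day 3, 5 of the 10 genes were in the authors' deposited table, and all 5 were higher in ROR2+ cells; the table calls 27.9% of an estimated 16632 genes tested, 15.4% higher and 12.5% lower. FBN2 had 99.5 FPKM in ROR2+ cells and 9.28 in ROR2- cells in the authors' deposited table, a log2 ratio of 3.42 (q = 0.000375). LOX had 9.90 FPKM in ROR2+ cells and 1.23 in ROR2- cells in the authors' deposited table, a log2 ratio of 3.01 with the same q-value. ELN (8.47 FPKM in ROR2+ cells, 2.09 in ROR2- cells) and LOXL1 (4.95 and 1.33 FPKM) had log2 ratios of 2.02 and 1.89 in the authors' deposited table. FBN1 differed least, with 6.05 FPKM in ROR2+ cells and 4.18 in ROR2- cells in the authors' deposited table, a log2 ratio of 0.53 (q = 0.0155). Its level in unsorted D3 cells, 7.04 FPKM, was above both, whereas those of the other 4 lay between the sorted populations. The sort itself can be seen in ROR2, with 72.0 FPKM in ROR2+ cells and 5.90 in ROR2- cells in the authors' deposited table. In this authors' deposited table all 5 pluripotency markers were lower in ROR2+ cells, and the endoderm markers SOX17 (12.5 FPKM in ROR2+ cells, 0.664 in ROR2- cells), FOXA2 and AFP were higher, as were 5 of 10 stromal markers, with 2 lower; their part in the differences was not tested.

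On day 4, 8 of the 10 genes were in the authors' deposited table, 5 higher and 3 lower in PDGFRa+ cells; the table calls 36.3% of an estimated 13303 genes tested, 17.2% higher and 19.0% lower. Higher in PDGFRa+ cells were ELN, with 7.84 FPKM in PDGFRa+ cells and 1.59 in PDGFRa- cells in the authors' deposited table (log2 ratio 2.30), and FBN1, with 11.6 and 3.92 FPKM (1.57). LOXL4 (2.20 FPKM in PDGFRa+ cells, 1.04 in PDGFRa- cells) and FBN2 (97.5 and 51.0 FPKM) had log2 ratios of 1.09 and 0.93 in the authors' deposited table. LOXL1 had 1.87 times as much in PDGFRa+ cells as in PDGFRa- cells, where it had 16.6 FPKM, in the authors' deposited table (log2 ratio 0.91). Those 5 include both fibrillins and elastin. Lower in PDGFRa+ cells were POSTN, with 0.213 FPKM in PDGFRa+ cells and 1.96 in PDGFRa- cells in the authors' deposited table (log2 ratio -3.21), and LOX, with 0.908 and 2.49 FPKM (-1.45). FBLN5 was lower by less, with 1.29 FPKM in PDGFRa+ cells and 2.14 in PDGFRa- cells in the authors' deposited table (log2 ratio -0.73, q = 0.0448), and the other 7 had q = 0.000269. On the log2(FPKM + 1) scale 3 of the 8, ELN, FBN1 and POSTN, differed by at least 2-fold. LOX was higher in ROR2+ cells on day 3 and lower in PDGFRa+ cells on day 4, at levels under 10 FPKM in all 4 populations; the difference between the sorts was not tested. FBN2, LOXL1, LOXL4, LOX and FBLN5 had a lower level in unsorted D4 cells, which also hold ROR2- cells, than in either sorted population. PDGFRA had 304 FPKM in PDGFRa+ cells and 8.28 in PDGFRa- cells in the authors' deposited table. Of the stromal markers 7 of 10, and of the cardiomyocyte markers 7 of 8, were higher in PDGFRa+ cells in the authors' deposited table, while the endoderm and liver list was split. AFP and APOA1 were higher, with 1.77 and 40.0 FPKM in PDGFRa+ cells, against 0.314 and 22.1 FPKM in PDGFRa- cells, in the authors' deposited table, and SOX17 and FOXA2 were lower, with 2.30 and 3.16 FPKM in PDGFRa+ cells, against 10.1 and 23.0 FPKM in PDGFRa- cells; their part in the differences was not tested.

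**Figure D4:**
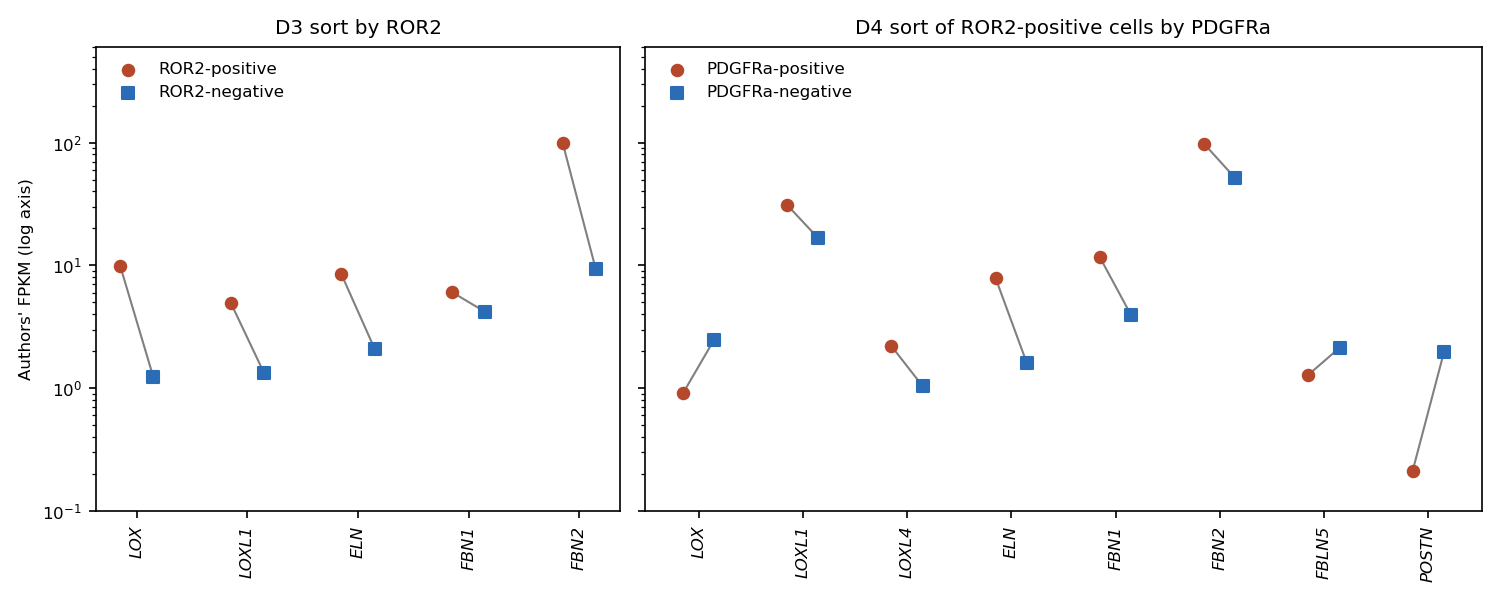
Authors' FPKM (log axis) of the called genes in the positive (left) and negative (right) population of each sort, one line per gene, each end the authors' value for 2 libraries. All 5 genes of the day 3 sort are higher in ROR2+ cells, and in the day 4 sort POSTN, LOX and FBLN5 are lower in PDGFRa+ cells while 5 genes are higher.

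Partners of the 10 genes were counted in 6 lists. For D15 against D10, 6.32% of all kept genes were 2-fold higher and 9.51% lower. Of 8 fibrillar collagens, the substrates of the enzymes, 6 were 2-fold higher at D15 than at D10 and none lower (median log2 difference 1.51). COL3A1 had 2037 FPKM at D15 and 529 at D10, and COL1A1 had 733 and 238 FPKM; these 2 and COL1A2 are also among the stromal markers. Of 15 kept elastic fibre and microfibril partners, 7 were higher at D15 and none lower (median 0.91), with LTBP1, a latent TGF-beta binding protein, at 171 FPKM at D15 and 68.3 at D10. FBLN1, a fibulin, had 86.7 FPKM at D15 and 81.1 at D10. Of 20 kept genes of collagen modification and secretion, 8 were higher at D15 and none lower (median 0.78). Of 14 matricellular partners, 5 were higher at D15 and none lower (median 0.64), with fibronectin (FN1) at 2880 FPKM at D15 and 762 at D10 and SPARC at 1306 and 388 FPKM. Of 13 genes of TGF-beta signalling, 4 were higher and 1 lower (median 0.31), and of 4 kept copper supply genes, which serve the enzymes' metal, none passed 2-fold (median -0.03).

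In purified cardiomyocytes against D15, 4.07% of all kept genes were 2-fold lower and 7.23% higher. Of 8 fibrillar collagens 7 were 2-fold lower (median -1.63), and of 20 genes of collagen modification 7 (median -0.91). Of 14 matricellular partners 6 were 2-fold lower (median -0.72), and of 15 elastic fibre partners 5 (median -0.34). COL3A1 had 609 FPKM in cardiomyocytes and 2037 at D15, while LTBP1 had 153 FPKM in cardiomyocytes and 171 at D15. Of the matricellular genes 3 were 2-fold higher in cardiomyocytes, one of them THBS1, with 358 FPKM in cardiomyocytes and 141 at D15. Of the TGF-beta genes 2 were higher and none lower (median 0.41). After median-ratio rescaling 0 were higher and 1 lower (median 0.019), beside 2.58% and 9.75% of all kept genes. No copper supply gene passed 2-fold as deposited (median 0.03). Under either rescaling the medians of the other 5 lists kept their sign in both comparisons, while 16 or 14 genes of collagen modification were then 2-fold lower in cardiomyocytes. The share of all kept genes that was lower was then 9.75% or 8.28%. The median of the copper supply list under these rescalings was 0.42 or 0.34 for D15 against D10 and -0.37 or -0.20 for cardiomyocytes against D15. The 10 genes themselves had a median of -0.66 in this comparison, beside 0.12 for all kept genes. In the authors' deposited tables, 7 of 8 fibrillar collagens were higher in ROR2+ cells on day 3 and none lower, and 5 were higher in PDGFRa+ cells on day 4 with COL2A1 lower. COL3A1 had 76.8 FPKM in PDGFRa+ cells and 1.08 in PDGFRa- cells in the authors' deposited table. Of the elastic fibre partners, 5 were higher and 3 lower in ROR2+ cells, and 6 higher and 3 lower in PDGFRa+ cells, in the authors' deposited tables. Those tables call an estimated 15.4% of genes tested higher and 12.5% lower in ROR2+ cells. For PDGFRa+ cells these shares are 17.2% and 19.0%.

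**Figure D5:**
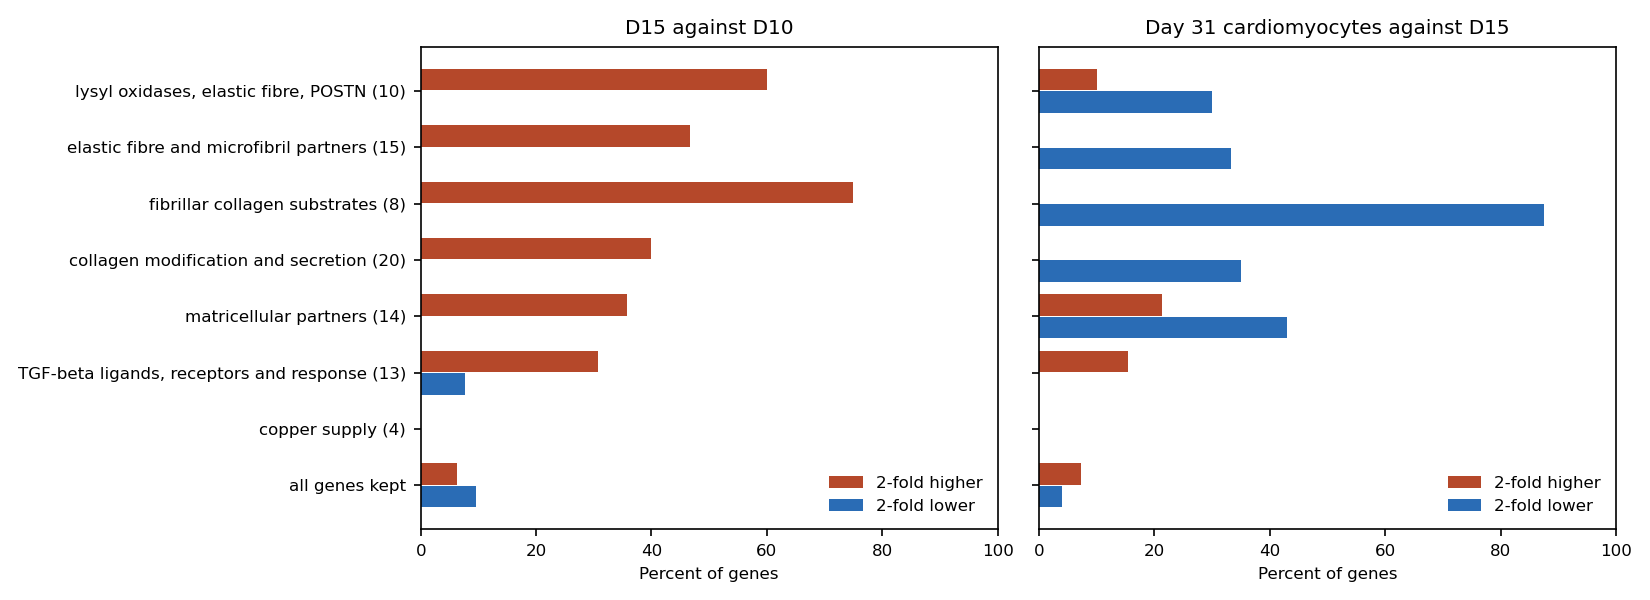
Percent of each list that was at least 2-fold higher or lower in log2(FPKM + 1), for D15 against D10 and for purified cardiomyocytes against D15, with all 21715 kept genes for scale. Fibrillar collagens stand at 6 of 8 higher for D15 against D10 and 7 of 8 lower for cardiomyocytes against D15.

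Across the 11 time points the 10 genes followed each other to different degrees. Pearson's r of log2(FPKM + 1) over the 45 pairs had a median of 0.73, a lowest value of 0.25 and a highest of 0.91, between LOXL2 and FBN1; 13 pairs were above 0.8. Each point is 1 time point, and all genes of a time point share its libraries and scale. The same values were not computed for pairs of other genes, so a median of 0.73 cannot be read as high. Among 11585 genes that reached 10 FPKM, the patterns most like LOX were those of NADSYN1, INHBA and SCG2 (r = 0.95 each). LOXL2 was nearest to COL6A3 (r = 0.95), FBN1 to ITGA1 (0.96), FBN2 to DCHS1 (0.97) and COL5A1 (0.96), POSTN to MASP1 (0.99) and FBLN5 to LINC00982 (0.99). INHBA, a subunit of activin, had 19.4 FPKM at D15 and 0.861 at D10. The nearest genes were GPR124 for LOXL1 (r = 0.97), PIGS for LOXL3 (0.95), KRBA1 for LOXL4 (0.98) and IL1RAP for ELN (0.94).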

How the data were processed

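RNA of 30 libraries (22 of the time course, 8 of the sorts) was analysed from 3 deposited tables. In the time course the authors give 1 FPKM per gene and time point; the header does not name the unit, which was taken from the pipeline and the values. The sort tables hold, per the file headers, the authors' FPKM, log2 fold change, linear ratio, test statistic (a score), p-value and q-value. Per the submitters' processing notes TopHat2 2.0.8b, Bowtie2 2.1.0.0, Cufflinks and hg19 were used; their annotation, strand and scaling are not given in the sources used. Per the labels' protocols, 500 ng of RNA, 10 PCR cycles and read pairs of 100 nt were used.

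The planned limma fit needs values per library and was not run, so time-course differences of log2(FPKM + 1) have no test and no interval, and depth in reads is unknown. Genes with at least 1 FPKM in 1 time point were kept. The number of genes tested in each sort was worked out from the last-ranked gene, as q-value times rank over p-value. The gene lists and the members were chosen with earlier results of these data known. All 10 members are named. Of other lists, the plan allowed naming the 3 genes with the highest level and genes in a sort table. As most alike, it allowed the 3 genes with the highest Pearson r for each member. Only some of these listed and alike genes are named above, and DPT was named outside the plan. Only the counting of 2-fold differences was tested on simulated data, with larger changes put into genes of high level. Alternatives were another pseudocount (0.1), median-ratio and TPM rescaling, a 1.5-fold threshold, no filter, neighbouring time points, and a q-value of 0.01 or a 2-fold minimum in the sorts; rescaling of the partner lists and of the peak times was added after the data were seen. Start positions of the sort tables count from 0 and were turned to 1-based. Exon overlaps came from GENCODE 29. Python 3.11.15, pandas 2.3.3, NumPy 2.4.6 and matplotlib 3.10.9 were used.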

Additional observations from a re-analysis of the deposited data

How the results depend on the processing

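No paired analysis was possible because the tables give 1 value per group, and for the same reason no library could be left out. Beyond these, 43 of 64 counts of the 10 genes stayed within 1.5 times their reported value. The 10 counts without the filter are among them and could not differ, since all 10 genes pass it. Percentages in brackets give the share of all kept genes under the same setting. For D1 against hESC the number higher (1) was 0 after median-ratio rescaling (8.63%) and 4 in TPM (34.1%). It was 2 at 1.5-fold (22.9%) and 2 with D2 in place of D1 (10.7%). The number lower (2) was 0 in TPM (3.98%) and 0 with D2 (11.8%). For D4 against D3 the number higher (1) was 2 with a pseudocount of 0.1 (14.6%) and at 1.5-fold (16.7%). With median-ratio and TPM rescaling it was also 2 (8.82% and 13.1%), and against D2 the number lower (1) was 0 (8.31%). For D15 against D10 the number higher (6) was 10 after median-ratio rescaling (14.5%) and at 1.5-fold (16.2%). It was also 10 in TPM, where 3036 of the 21715 kept genes were higher. As deposited, 6.32% of all kept genes were higher in this comparison. For cardiomyocytes against D15 the number higher (1) was 0 with median-ratio and TPM rescaling (2.58% and 4.19%). It was 6 with D10 in place of D15 (8.14%). The number lower (3) was 6 after median-ratio rescaling (9.75%), 6 at 1.5-fold (12.0%) and 0 with D10 (4.61%). In the D4 sort, 3 of the 8 called genes were 2-fold on the log2(FPKM + 1) scale. A q-value under 0.01 kept both sort counts within 1.5 times.

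With D10 in place of D15, the log2 difference of cardiomyocytes turned positive for all 8 genes in which it was negative: LOX (2.35), LOXL1 (0.29), LOXL2 (0.27), LOXL3 (0.23), ELN (0.94), FBN1 (1.17), FBN2 (1.20) and POSTN (2.60), and with D1 in place of hESC that of LOXL3 was -0.013. For single genes, 284 of 300 values kept their direction and 16 turned. Of the 300, the 50 at 1.5-fold and the 50 without the filter are the reported values themselves and could not turn. Of the 16, 8 turned with D10 in place of D15, 4 for D4 against D2, 2 in TPM and 1 each with D2 or D1 as the neighbouring time point. Of the 284, 38 newly passed the line of their setting and 9 no longer did. Of the 38, 9 were unchanged values that passed the 1.5-fold line but not the 2-fold line. For D15 against D10, the median over all kept genes was -0.04 as deposited, 0.26 by median ratio and 0.21 in TPM, and the share higher among genes past 2-fold was 39.9%, 81.0% and 76.2%. For cardiomyocytes against D15 that share was 64.0%, 20.9% and 33.6%, and for D1 against hESC 51.9%, 39.8% and 89.5%. D15 had the lowest estimated depth, so low genes there may rest on fewer reads. The cause of the differences between scalings was not tested.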
